A study of Mus musculus with 19 samples.

Results

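The 40 genes described here serve protein folding in the endoplasmic reticulum (ER) and the stress response that watches over it. They were taken by symbol from a table of 24537 genes, and all 40 had a row and passed the filter on low counts. They fall into 6 groups by role. There are 15 ER chaperones and foldases, 5 sensors and transcription factors, 5 targets of the ATF4 and CHOP branch, the phosphatase subunit gene Ppp1r15b, 7 genes of ER-associated degradation, and 7 genes of the translocon and the signal sequence receptor. Their transcripts were counted by poly(A) RNA sequencing of hepatocytes from 19 male mice. Every mouse was wild type (WT) of the C57BL/6J strain, and the labels give no treatment. The 10 young mice were 5 months old and the 9 old mice 24 months old. They were killed on 2 days 23 days apart, with 5 young and 5 old mice on the first day and 5 young and 4 old on the second. The livers had been perfused in 2 steps to free the hepatocytes, and 1 line of mice was used. The comparison asked which transcripts differ with age, and each mouse is named by the library number in its label.

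Proteins bound for the cell surface, the blood or the organelles of the secretory pathway are threaded into the ER through the Sec61 channel, folded by chaperones and foldases, and sent back to the cytosol for destruction if they fail to fold. When unfolded proteins build up, the sensors IRE1 (encoded by Ern1), PERK (Eif2ak3) and ATF6 start the unfolded protein response. IRE1 splices Xbp1 mRNA, and spliced XBP1 and cleaved ATF6 switch on chaperone and degradation genes. PERK phosphorylates eIF2 alpha, which slows translation in general while ATF4 is made, and ATF4 acts on genes of amino acid supply and, through CHOP, of cell death. Hepatocytes secrete albumin and most other plasma proteins and hold an extensive ER.

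The chaperone genes are known for a control element that ATF6 and XBP1 use, and several ATF4 targets for another, so the promoter letters of the members are shown first. RefSeq promoter windows of 300 bases (250 before to 50 after the gene start, build GRCm38.p6) were at hand for 33 of the 40 members. On both strands, the ER stress response element (ERSE) was searched as CCAAT and CCACG with 9 bases between them, and ERSE-II as ATTGG, any 1 base, then CCACG. The unfolded protein response element was searched as TGACG followed directly by TGG, and the C/EBP-ATF response element (CARE) as TGATG, any 1 base, then AA. ERSE-II shares CCACG, and CCAAT read on the other strand, with ERSE. The ERSE and ERSE-II lines show chaperone and degradation genes that stand in the results below, and the CARE lines the ATF4 targets and Herpud1. Capitals mark the fixed letters of each element, 5′ to 3′.
Hspa5 ERSE: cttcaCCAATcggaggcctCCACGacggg
Hsp90b1 ERSE: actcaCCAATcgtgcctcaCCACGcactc
Creld2 ERSE: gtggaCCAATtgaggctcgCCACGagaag
Syvn1 ERSE: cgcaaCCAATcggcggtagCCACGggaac
Herpud1 ERSE-II: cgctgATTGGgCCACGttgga
Dnajb11 ERSE-II: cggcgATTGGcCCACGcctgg
Herpud1 CARE: cgggcTGATGcAAcccgc
Asns CARE: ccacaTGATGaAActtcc
Chac1 CARE: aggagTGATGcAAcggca
Trib3 CARE: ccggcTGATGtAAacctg

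The Hspa5 site lies at chr2:34772020-34772048 on the plus strand, 65 bases before the gene start. The Hsp90b1 site is at chr10:86705528-86705556 (plus strand, 107 bases before the start), and that promoter holds a further ERSE 212 bases before the start. The Creld2 site is at chr15:88819515-88819543 (minus strand, 126 bases before) and the Syvn1 site at chr19:6046527-6046555 (plus strand, 44 bases before). In Herpud1 the ERSE-II is at chr8:94386372-94386392 (plus strand, 52 bases before) and the CARE at chr8:94386312-94386329 (minus strand, 112 bases before). The Dnajb11 site, at chr16:22857847-22857867 on the plus strand, lies 8 bases after the start. For the ATF4 branch the sites are at chr6:7693220-7693237 for Asns (minus strand, 23 bases before the start), chr2:119351044-119351061 for Chac1 (minus strand, 193 bases before) and chr2:152344034-152344051 for Trib3 (plus strand, 15 bases after).

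ERSE letters were found in 9 of the 33 members with a window (27.3%), which were Hspa5, Hsp90b1, Calr, Canx, Pdia6, Dnajc3, Creld2, Syvn1 and Derl3. Of all 32851 RefSeq windows of that length, 39 held them (0.119%). ERSE-II letters were in 2 members and in 12 of all windows (0.0365%). CARE letters were in 4 members (12.1%) and in 3.97% of all windows. The unfolded protein response element was in 0 of the 33 members and in 0.676% of all windows, which says only that these letters are absent from those 300 bases. Herpud1 was the member with both an ERSE-II and a CARE. A match of letters is a description of the window, and no binding was measured.

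Library totals over genes ran from 17381307 to 20287481 counts, 18575094 ± 679515 (SD, n = 10) in young and 19548840 ± 620312 (SD, n = 9) in old mice. No member had fewer than 10 counts in any library. Hepatocyte markers matched the label: 10 of 11 listed had a row (2 higher and 2 lower in old mice), and they summed to 113407 to 164413 CPM (counts per 1000000 of the library total after scaling by the trimmed mean of M-values, TMM) in young and 130748 to 213018 CPM in old mice. The spans of 5 members overlap that of another gene in the deposited file. Ddit3 and Syvn1 are taken up below, and the genes that overlap Pdia4, Pdia6 and Ppp1r15a averaged 0.220 to 1.72 CPM. Some libraries stood apart. Young mice 1184, 1186 and 1188 held 115719, 117474 and 113407 CPM of the hepatocyte markers, against 148383 to 164413 in the other young mice. They also held 40594, 54358 and 29321 CPM summed over 14 acute phase genes, which encode plasma proteins made in inflammation, against 5904 to 7213 in the other young mice and 8613 to 28867 in the old. None of the 14 passed with age in edgeR (1 at an unadjusted p under 0.05), while DESeq2 called 1 lower and limma-voom 1 higher. Without these 3 young mice 12 of 14 were called higher in old mice (median log2 fold change 1.60), where 14.6% of all genes tested were. They are the young mice highest in these same genes, so leaving them out lowers the young values by construction. On the second cull day alone, which did not hold them, 12 of 14 were called higher too (median 1.61), where 12.2% of all genes tested were. Markers of other liver cells moved with age. Of 14 macrophage markers 13 were higher in old mice and 0 lower, of 12 endothelial markers 8 and 0, and of 13 stellate cell markers 13 and 0, where 16.3% of all genes tested were higher. Macrophage sums were 111 to 556 CPM in young and 72.7 to 3567 CPM in old mice, with old mouse 1187 highest. Endothelial sums were 182 to 331 and 190.0 to 610 CPM, and stellate sums 51.6 to 138 and 146 to 517 CPM. Plasma and B cell markers, which matter here since plasma cells are rich in ER chaperones, summed to 0.384 to 3.14 CPM in young and 1.90 to 22.8 CPM in old mice, with 1 of 10 listed tested (higher) and Tnfrsf17 at 0 in every library. The part of these cells in the results below was not tested. For some results a fit with the mean log2 level of these markers as a covariate (the other-cell covariate) is given. That level ran from 2.22 (mouse 1180) to 3.81 (mouse 1184) in young and from 2.46 (mouse 1183) to 5.65 (mouse 1187) in old mice. As it moves with age itself, a call lost or gained in such a fit cannot separate age from other cells. In RNA from a pool of cells, fewer cells of a type and less RNA per cell cannot be told apart.

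Per kilobase of counted transcript, the members spanned a wide range of levels. P4hb, which encodes a protein disulfide isomerase that is also a subunit of prolyl hydroxylase, was highest with 561 ± 79.2 CPM per kb (SD, n = 19), followed by the calcium-binding lectin chaperone gene Calr with 550.2 ± 113. These 2 did not differ beyond their spread. Next came Hspa5, which encodes BiP, the HSP70 of the ER, with 392 ± 92.7 CPM per kb, and Hsp90b1, the HSP90 of the ER, with 377 ± 75.8, also within each other's spread. Herpud1 was the highest gene outside the chaperones with 167 ± 45.7 CPM per kb. Among the transcription factors, Xbp1 (103 ± 26.9) stood above Atf4 (51.2 ± 8.39) and Atf6 (10.2 ± 1.87). All 5 ATF4 and CHOP targets were low, from 2.84 ± 1.06 CPM per kb for Trib3 to 7.56 ± 2.19 for Ddit3. The lowest member was Derl3, with 2.34 ± 1.83 CPM per kb. The ratio of the highest to the lowest mouse was smallest for Derl1 (1.37) and Canx (1.37) and largest for Asns (64.5), Chac1 (25.9) and Derl3 (12.8). These 3 were among the 5 members of lowest level.

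With age, 4 of the 40 members passed the threshold, an adjusted p under 0.05 in edgeR's quasi-likelihood test of old against young mice with cull day as a covariate. Ddit3, which encodes CHOP, was higher in old mice, and Asns, Herpud1 and Ppp1r15b were lower. That is 10% of members, where 30.9% of all 12269 genes tested passed, 16.3% higher and 14.5% lower in old mice. The members spread more between mice, which makes a call less likely. Their median residual SD within age and cull day was 0.273 on the log2 scale, against 0.237 over all genes tested. The median log2 fold change of the members was -0.09, against -0.003 over all genes tested, and 30 of 40 lay below 0 (all genes tested: 6186 of 12269). For 29 members the 95% interval of the age effect lay within a 1.5-fold change either way, and for 37 within a 2-fold change. Of the 9 members with ERSE letters in the promoter, 0 were called in edgeR, DESeq2 or limma-voom and 0 had an unadjusted edgeR p under 0.05. Of the 2 with ERSE-II letters Herpud1 was called, and of the 4 with CARE letters Asns and Herpud1. In no member did the CPM ranges of the ages separate, while they separated in 1.72% of all genes tested.

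**Figure D1:**
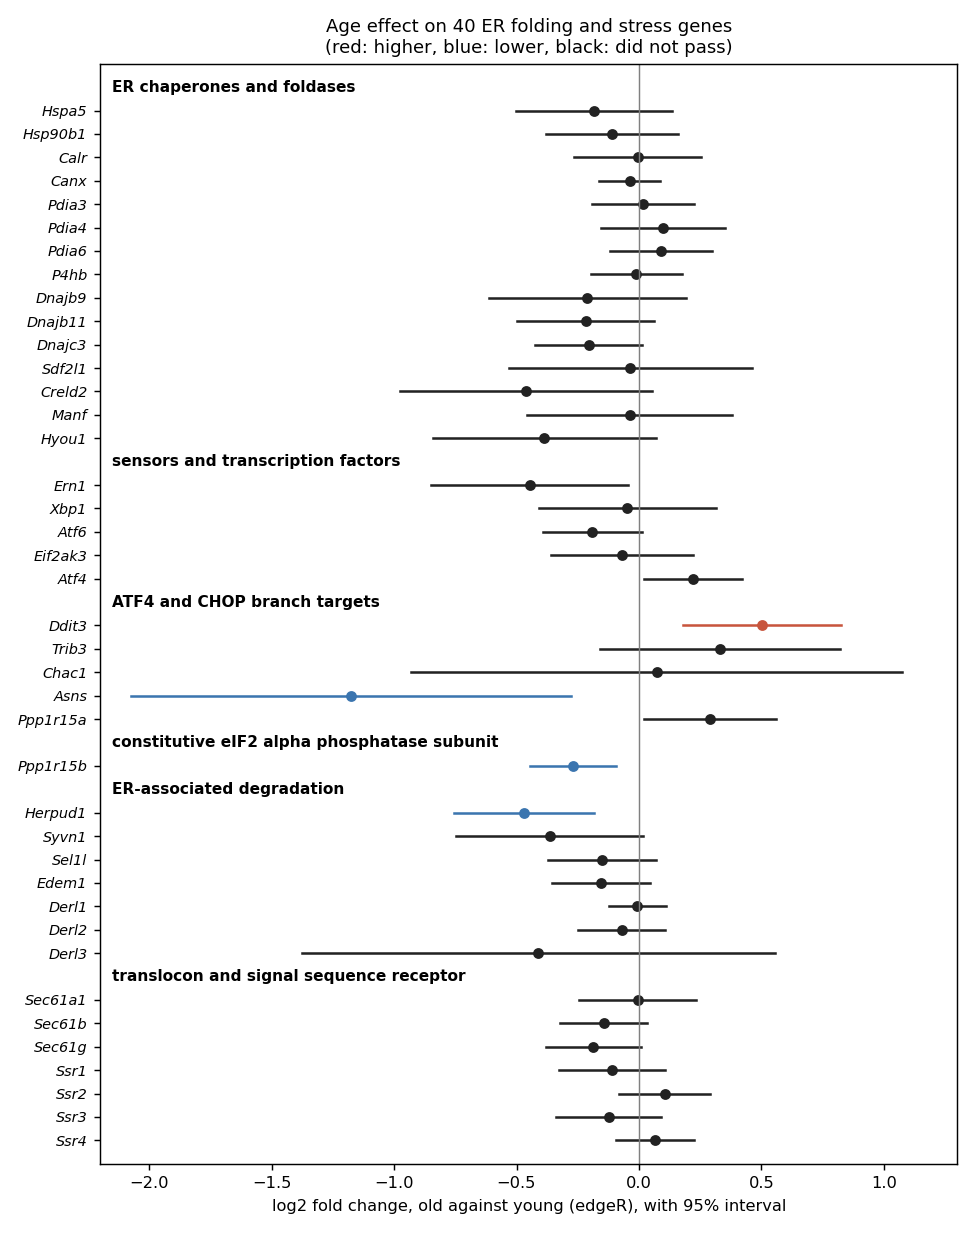
Log2 fold change of each of the 40 members, old against young mice, from the edgeR fit with cull day, with its 95% interval, grouped by role. Ddit3 (red) is the member higher in old mice, Asns, Herpud1 and Ppp1r15b (blue) are lower, the intervals of Asns, Chac1 and Derl3 are the widest, and all 15 chaperones cross or touch 0.

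Among the 15 chaperones and foldases of the ER, 0 passed in edgeR and 0 had an unadjusted p under 0.05. DESeq2 and limma-voom also called 0, with 1 and 0 genes at an unadjusted p under 0.05. The median log2 fold change was -0.04, with a range of -0.46 to 0.10, and 12 of 15 intervals lay within 1.5-fold either way. The bounds of all 15 intervals ran from -0.98 to 0.46, so a rise beyond 0.46 on the log2 scale lay outside the interval of every chaperone.

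Hspa5, the BiP gene and the usual readout of ATF6 activity, lies at chromosome 2, 34772090 to 34776529 (all member positions are those of the deposited table, on mm10). Hspa5 ran from 687 to 1456 CPM in young mice (median 1116) and from 659 to 1462 CPM in old mice (median 896). The ranges overlapped almost entirely: old mouse 1189 had the highest level of all 19 mice and old mouse 1183 the lowest. The difference was small beside the spread (log2 fold change -0.18, SE 0.152, edgeR adjusted p = 0.375, 95% interval -0.50 to 0.13). The 3 chaperone genes with the smallest p were Dnajc3, Creld2 and Hyou1. Dnajc3 encodes P58IPK, a co-chaperone of BiP that also restrains PERK. Dnajc3 ran from 202 to 332 CPM in young mice (median 254) and from 197 to 311 CPM in old mice (median 216). All old mice but 1189 and 1240 were below the young median (log2 fold change -0.21, SE 0.105, edgeR adjusted p = 0.142). Creld2 encodes a small ER protein induced by ER stress. Creld2 ran from 18.9 to 119.7 CPM in young mice (median 53.9) and from 25.9 to 58.1 CPM in old mice (median 38.3). The young mice spread further than the old ones, from mouse 1180 at the bottom to mouse 1235 at the top (log2 fold change -0.46, SE 0.246, edgeR adjusted p = 0.162). Hyou1 encodes ORP150, the large HSP70-like protein that exchanges nucleotide on BiP. Hyou1 ran from 116 to 387 CPM in young mice (median 225) and from 111 to 302 CPM in old mice (median 148). One old mouse, 1189, was above the young median, and the difference did not pass (log2 fold change -0.39, SE 0.217, edgeR adjusted p = 0.183).

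Nearer to 0 were Hsp90b1, the lectin chaperone genes Calr and Canx, the disulfide isomerase genes Pdia3, Pdia4, Pdia6 and P4hb, and Sdf2l1 and Manf, with log2 fold changes between -0.11 (Hsp90b1) and 0.10 (Pdia4). The BiP co-chaperones Dnajb9 and Dnajb11, which encode ERdj4 and ERdj3, were at -0.21 (edgeR adjusted p = 0.427) and -0.22 (0.223). Canx varied least of the group: its level was 383 ± 30.5 CPM in young (SD, n = 10) against 376 ± 39.0 in the old (SD, n = 9). Without young mice 1184, 1186 and 1188 the median of the 15 chaperones was 0.01 and 0 were called. Without old mouse 1189 it was -0.15, and Dnajb9 (-0.41, edgeR adjusted p = 0.0385) and Hyou1 (-0.54, 0.0469) were called lower. That mouse was the highest old mouse in each of the 15, so leaving it out lowers the old values by construction. With the other-cell covariate all 15 chaperones were below 0 (median -0.29) and 0 were called in edgeR, with 3 at an unadjusted p under 0.05 and Creld2 nearest to the threshold (-0.82, edgeR adjusted p = 0.0540). With the acute phase score as a covariate, Dnajc3 was called lower (-0.23, edgeR adjusted p = 0.0414).

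No sensor or transcription factor gene passed, though 2 of the 5 had an unadjusted p under 0.05. In edgeR and in DESeq2 0 of 5 were called, with 3 at an unadjusted p under 0.05 in DESeq2, and limma-voom called Ern1. Counts of a gene do not separate spliced from unspliced Xbp1 mRNA, cleaved from whole ATF6, or phosphorylated from plain IRE1 and PERK, so these values are levels of transcript and not of activity. Ern1 encodes IRE1. Ern1 ran from 19.7 to 46.0 CPM in young mice (median 29.1) and from 11.1 to 52.6 CPM in old mice (median 18.3). Old mouse 1189 lay above every young mouse and 5 of the other old mice lay below every young mouse (log2 fold change -0.45, SE 0.192, edgeR adjusted p = 0.0829). Without old mouse 1189 the log2 fold change of Ern1 was -0.64 (edgeR adjusted p = 0.00411). Atf6 showed the same layout of mice. Atf6 ran from 66.2 to 101 CPM in young mice (median 82.6) and from 56.1 to 111 CPM in old mice (median 66.0). One old mouse was above the young maximum and 5 were below the young minimum (log2 fold change -0.19, SE 0.0959, edgeR adjusted p = 0.139). Without old mouse 1189 Atf6 was called lower (-0.27, edgeR adjusted p = 0.00990). For both genes the mouse left out was the highest old mouse, which lowers the old values by construction. With the other-cell covariate Ern1 was at -0.38 (edgeR adjusted p = 0.323) and Atf6 at -0.09 (0.654).

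Atf4, the transcription factor of the PERK branch and of the wider integrated stress response, leaned the other way. Atf4 ran from 69.2 to 93.6 CPM in young mice (median 81.7) and from 62.0 to 123 CPM in old mice (median 94.1). Of 9 old mice 8 were above the young median and 6 above the young maximum, while old mouse 1181 was below every young mouse (log2 fold change 0.22, SE 0.0962, edgeR adjusted p = 0.0882). Atf4 was called higher without old mouse 1181 (0.28, edgeR adjusted p = 0.0158) and with the score of the other cells' markers as a covariate (0.35, edgeR adjusted p = 0.0425). Xbp1, which IRE1 splices, had overlapping ranges. Xbp1 ran from 158 to 353 CPM in young mice (median 231) and from 134 to 318 CPM in old mice (median 216). The difference was -0.05 (SE 0.172, edgeR adjusted p = 0.856), with -0.30 within the first cull day and 0.24 within the second, and its interval ran from -0.41 to 0.31. Eif2ak3, the PERK gene, was at -0.07 (edgeR adjusted p = 0.731).

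**Figure D2:**
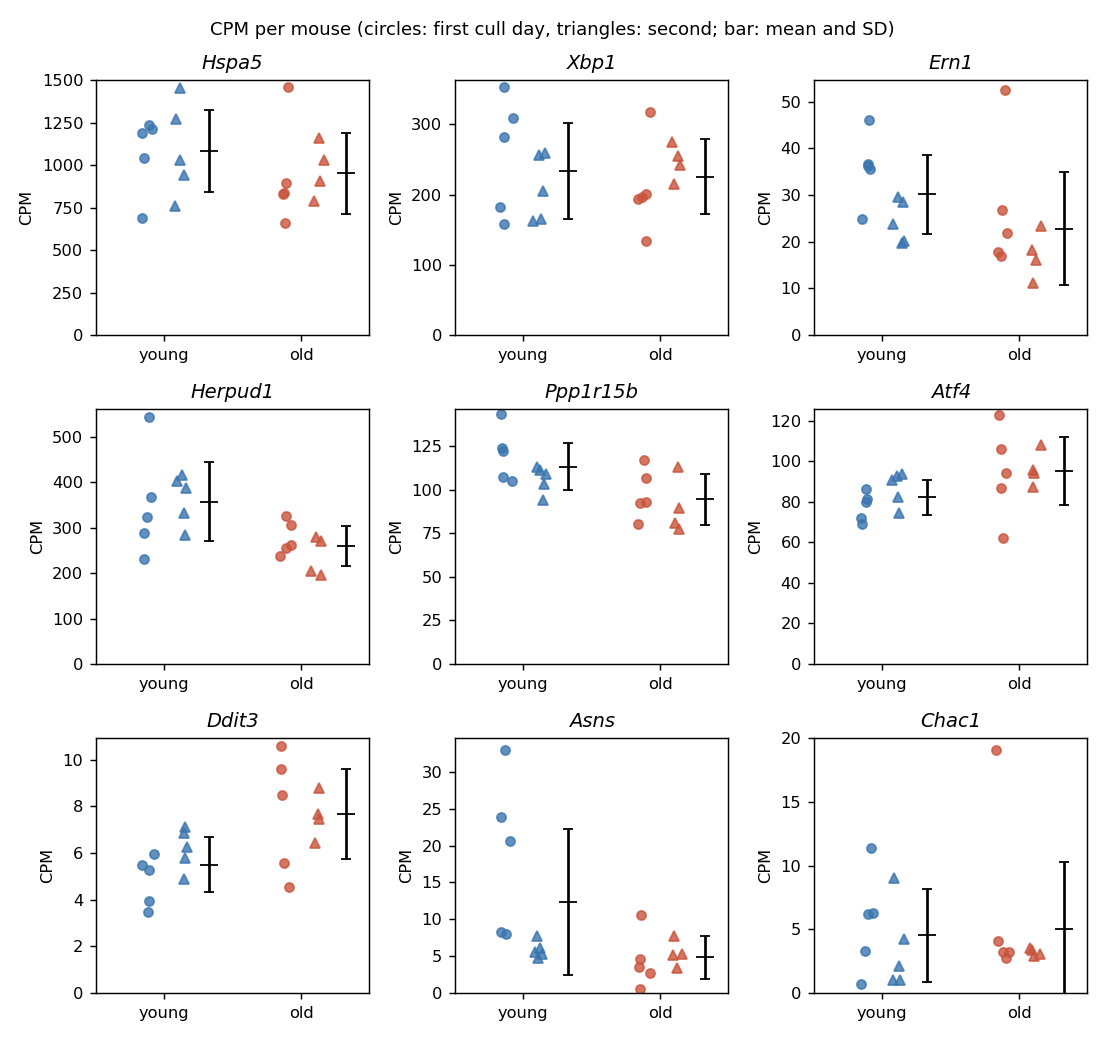
CPM of 9 members in each mouse (vertical axis, linear from 0), young in blue and old in red, circles for the first cull day and triangles for the second, with mean and SD beside each age. Herpud1 and Ppp1r15b are shifted down and Ddit3 up in old mice with overlap, 3 young mice of the first cull day set the high Asns values, and old mouse 1189 is the lone high Chac1 value; the lower end of the old Chac1 bar ends at the axis.

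The ATF4 and CHOP targets did not move as a block: Ddit3 was higher, Asns lower, and Trib3, Chac1 and Ppp1r15a did not pass. Ddit3, the gene of the transcription factor CHOP that links lasting stress to cell death, lies at chromosome 10, 127290793 to 127296288. Ddit3 ran from 3.48 to 7.10 CPM in young mice (median 5.64) and from 4.56 to 10.6 CPM in old mice (median 7.67). Of the 9 old mice 7 were above the young median and 6 above the young maximum, and the other 3 lay within the range of the young mice. The rise was 0.50 on the log2 scale (SE 0.154, 95% interval 0.18 to 0.82, edgeR adjusted p = 0.0203). It was called in each of the 19 fits that left out 1 mouse. It was not called without young mice 1184, 1186 and 1188 together (0.48, edgeR adjusted p = 0.0644), with the other-cell covariate (0.58, 0.0506), in limma-voom (0.34, limma adjusted p = 0.0512), or on either cull day alone (0.68, edgeR adjusted p = 0.127, and 0.30, 0.149). All these values were positive. In the deposited table the span of Ddit3 shares 68 bases with that of Mars on the opposite strand, a gene of higher level (60.4 CPM on average, against 6.54 for Ddit3). As the strand setting of the counting is not given in the sources used here, some Ddit3 reads may belong to Mars, which itself did not pass (log2 fold change -0.15, SE 0.0720, edgeR adjusted p = 0.112).

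Asns, asparagine synthetase, is a standard target of ATF4 and lies at chromosome 6, 7675171 to 7693182. Asns ran from 4.68 to 33.03 CPM in young mice (median 7.86) and from 0.512 to 10.5 CPM in old mice (median 4.61). The young mice fell apart into young mice 1184, 1186 and 1188, with 33.03, 20.6 and 23.8 CPM, and the other 7, with 4.68 to 8.32. Old mouse 1181 was lowest with 0.512 CPM and old mouse 1189 highest with 10.5. The difference with age was -1.18 (SE 0.430, 95% interval -2.08 to -0.28, edgeR adjusted p = 0.0438). Without those 3 young mice, which were also the ones high in acute phase transcripts, it was -0.44 (edgeR adjusted p = 0.398). It was -2.09 on the first cull day, which held them, and -0.13 on the second, and the call was lost in 9 of the 19 fits without 1 mouse. These were the fits without old mouse 1181, 1183, 1185, 1187 or 1240 or young mouse 1184, 1186, 1188 or 1244, with values of -1.20 to -0.97 and edgeR adjusted p of 0.0520 to 0.0786. With scaling by library totals alone it was -1.15 (edgeR adjusted p = 0.0522). With the acute phase score as a covariate it was -1.32 (edgeR adjusted p = 0.00307).

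Trib3, a pseudokinase gene induced by ATF4 and CHOP, ran from 2.84 to 11.2 CPM in young and from 4.03 to 8.34 CPM in old mice (log2 fold change 0.33, SE 0.235, edgeR adjusted p = 0.300). Chac1, which encodes a glutathione-degrading enzyme, was at 19.1 CPM in old mouse 1189, with the remaining old mice at 2.75 to 4.05 CPM. Young mice ran from 0.737 to 11.4 CPM, so the age effect of Chac1 had a wide interval (0.07, 95% interval -0.93 to 1.08). Without old mouse 1189 the effect was -0.43 (edgeR adjusted p = 0.468). Ppp1r15a encodes GADD34, the inducible subunit that directs phosphatase 1 to eIF2 alpha and so closes the loop. Ppp1r15a ran from 9.41 to 21.4 CPM in young mice (median 12.9) and from 10.7 to 19.6 CPM in old mice (median 17.0). Of the old mice 7 were above the young median, the old maximum lay below the young maximum, and the difference did not pass (log2 fold change 0.29, SE 0.129, edgeR adjusted p = 0.0926). Within the first cull day it was 0.56 and within the second -0.004. Ppp1r15a was called higher with the other-cell covariate (0.47, edgeR adjusted p = 0.0460), with the acute phase score (0.33, 0.0378), and without old mouse 1240 (0.36, 0.0403) or young mouse 1243 (0.36, 0.0297).

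Ppp1r15b, at chromosome 1, 133131166 to 133139800, encodes CReP, the constitutive partner of phosphatase 1 in the dephosphorylation of eIF2 alpha, and was lower in old mice. Ppp1r15b ran from 94.2 to 143 CPM in young mice (median 110.0) and from 77.5 to 117 CPM in old mice (median 92.2). The age ranges overlapped, with 6 of 9 old mice below the lowest young mouse and 2 above the young median. Expression fell by 0.27 on the log2 scale (SE 0.0845, 95% interval -0.45 to -0.09, edgeR adjusted p = 0.0223), and neither cull day alone gave a call (-0.30, edgeR adjusted p = 0.168, on the first and -0.23, 0.181, on the second). It was called in all 19 fits without 1 mouse and without young mice 1184, 1186 and 1188 together (-0.28, edgeR adjusted p = 0.0440). With the other-cell covariate the value was -0.12 (edgeR adjusted p = 0.419), and with scaling by library totals alone it was -0.23 (0.0641).

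In ER-associated degradation, Herpud1 was lower in old mice and the other 6 genes did not pass, although all 7 log2 fold changes were below 0 (median -0.15, range -0.47 to -0.01). Herpud1, at chromosome 8, 94386500 to 94395358, encodes a membrane protein that gathers the degradation complex at the ER and is a target of both branches of the response. Herpud1 ran from 230.3 to 545 CPM in young mice (median 350.0) and from 195 to 326 CPM in old mice (median 262). No old mouse was above the young median and 2 were below every young mouse. Herpud1 fell by 0.47 on the log2 scale (SE 0.136, 95% interval -0.76 to -0.19, edgeR adjusted p = 0.0150). It was called in all 19 fits without 1 mouse and without the 3 young mice (-0.63, edgeR adjusted p = 0.00293). The change was -0.34 on the first cull day (edgeR adjusted p = 0.321) and -0.61 on the second (0.0105). With the other-cell covariate it was -0.28 (edgeR adjusted p = 0.268).

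Syvn1, the gene of the ubiquitin ligase HRD1 at the core of the degradation complex, did not pass. Syvn1 ran from 47.8 to 136 CPM in young mice (median 76.9) and from 43.2 to 101 CPM in old mice (median 60.8). A single old mouse, 1189, was above the young median and young mouse 1235 was far above the other young mice (log2 fold change -0.36, SE 0.183, edgeR adjusted p = 0.136). Syvn1 was called lower without old mouse 1189 (-0.49, edgeR adjusted p = 0.0302). Its span in the table shares 89 bases with Mrpl49 on the opposite strand (24.1 CPM on average, against 69.8 for Syvn1), which leaves part of its count uncertain. Edem1 encodes a lectin-like protein that trims mannose from glycoproteins that failed to fold. Edem1 ran from 143 to 263 CPM in young mice (median 199) and from 153 to 216 CPM in old mice (median 172). The ranges of the ages overlapped (log2 fold change -0.15, SE 0.0956, edgeR adjusted p = 0.227). Sel1l, the HRD1 adaptor, was at -0.15 (edgeR adjusted p = 0.291). Of the derlins, Derl1 (-0.01) and Derl2 (-0.07) were close to 0, and Derl3 had a wide interval (-0.41, 95% interval -1.38 to 0.55), with 0.881 to 10.8 CPM in young and 0.844 to 6.00 CPM in old mice. Derl3 was at 0.26 within the first cull day (edgeR adjusted p = 0.703) and at -1.22 within the second (0.244).

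At the entry gate, 0 of the 7 translocon and signal sequence receptor genes passed in edgeR, and 0 had an unadjusted p under 0.05. DESeq2 called 0 with 1 at an unadjusted p under 0.05, and limma-voom called Sec61g lower (-0.26, limma adjusted p = 0.0384). Their median log2 fold change was -0.11, with a range of -0.19 to 0.11. Sec61g and Sec61b encode the small subunits of the channel whose pore is the product of Sec61a1. Sec61g ran from 19.9 to 28.9 CPM in young mice (median 25.7) and from 16.3 to 27.6 CPM in old mice (median 21.9). Of the old mice 3 were below every young mouse and 3 above the young median (log2 fold change -0.19, SE 0.0922, edgeR adjusted p = 0.131). Without old mouse 1189 Sec61g was called lower (-0.24, edgeR adjusted p = 0.0390). Sec61b ran from 36.6 to 58.7 CPM in young mice (median 48.6) and from 36.0 to 55.0 CPM in old mice (median 43.4), and 3 old mice were above the young median (log2 fold change -0.14, SE 0.0857, edgeR adjusted p = 0.207). The signal sequence receptor (TRAP complex) genes were at -0.11 (Ssr1), 0.11 (Ssr2), -0.12 (Ssr3) and 0.06 (Ssr4). Of these, Ssr3 had the smallest p. Ssr3 ran from 209.8 to 353 CPM in young mice (median 265) and from 196 to 374 CPM in old mice (median 245), with broad overlap (log2 fold change -0.12, SE 0.102, edgeR adjusted p = 0.376). Sec61a1 was at -0.01 (95% interval -0.25 to 0.23).

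The same mice stood out from gene to gene. Old mouse 1189 was the highest old mouse in 15 of 15 chaperones and in 33 of 40 members. Its mean deviation from the median of the old mice was 0.63 on the log2 scale over the chaperones, 0.79 over the sensors and transcription factors, 0.90 over the ATF4 and CHOP targets, 0.39 over the degradation genes and 0.42 over the translocon genes. Herpud1 and Ppp1r15b were among the 7 members where it was not the highest, at 262 and 92.9 CPM, inside the range of the old mice. At the other end, young mouse 1180 was the lowest young mouse in 12 of 15 chaperones and in 20 of 40 members, with a mean deviation of -0.59 over the chaperones. Among the young mice, 1186 and 1188 were above the young median in 15 of 15 chaperones, 1184 and 1235 in 13. The first 3 of these are the ones with high acute phase sums, while 1235 had 7159 CPM in acute phase genes, within the range of the other young mice. Old mouse 1189 had 23428 CPM of acute phase genes, and its macrophage, endothelial and stellate sums (352, 296 and 200.1 CPM) lay within the range of the other old mice. Its sum over 7 cholangiocyte (bile duct cell) markers, 63.5 CPM, was the highest of the old mice, and the lowest was 7.96 CPM. Young mice 1184, 1186 and 1188 had 31.0, 170.3 and 35.3 CPM of these markers, against 5.56 to 13.8 CPM in the other young mice. The part of bile duct cells in the levels of these mice was not tested. The relation of acute phase sums to chaperone levels across mice was not tested.

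**Figure D3:**
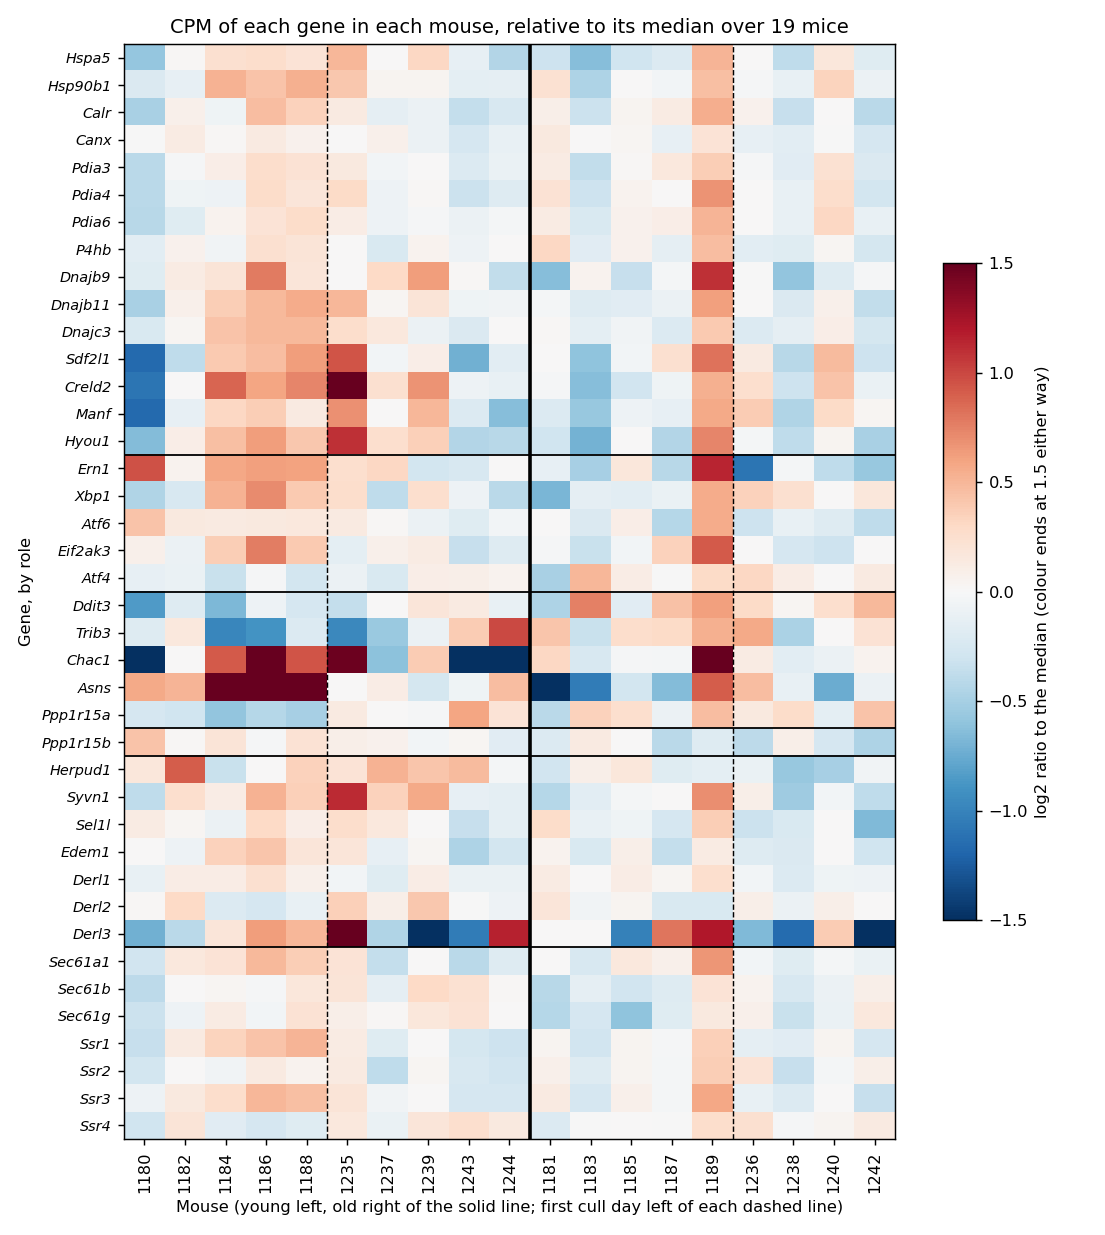
Colour map of the CPM of each member (rows, by role) in each mouse (columns) as a log2 ratio to the gene's median over all 19 mice, young left and old right of the solid line, cull days split by the dashed lines. Old mouse 1189 is red through most rows, young mouse 1180 is blue through most chaperones, and young mice 1184, 1186, 1188 and 1235 are red in most chaperones; colour ends at 1.5 either way.

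**Figure D4:**
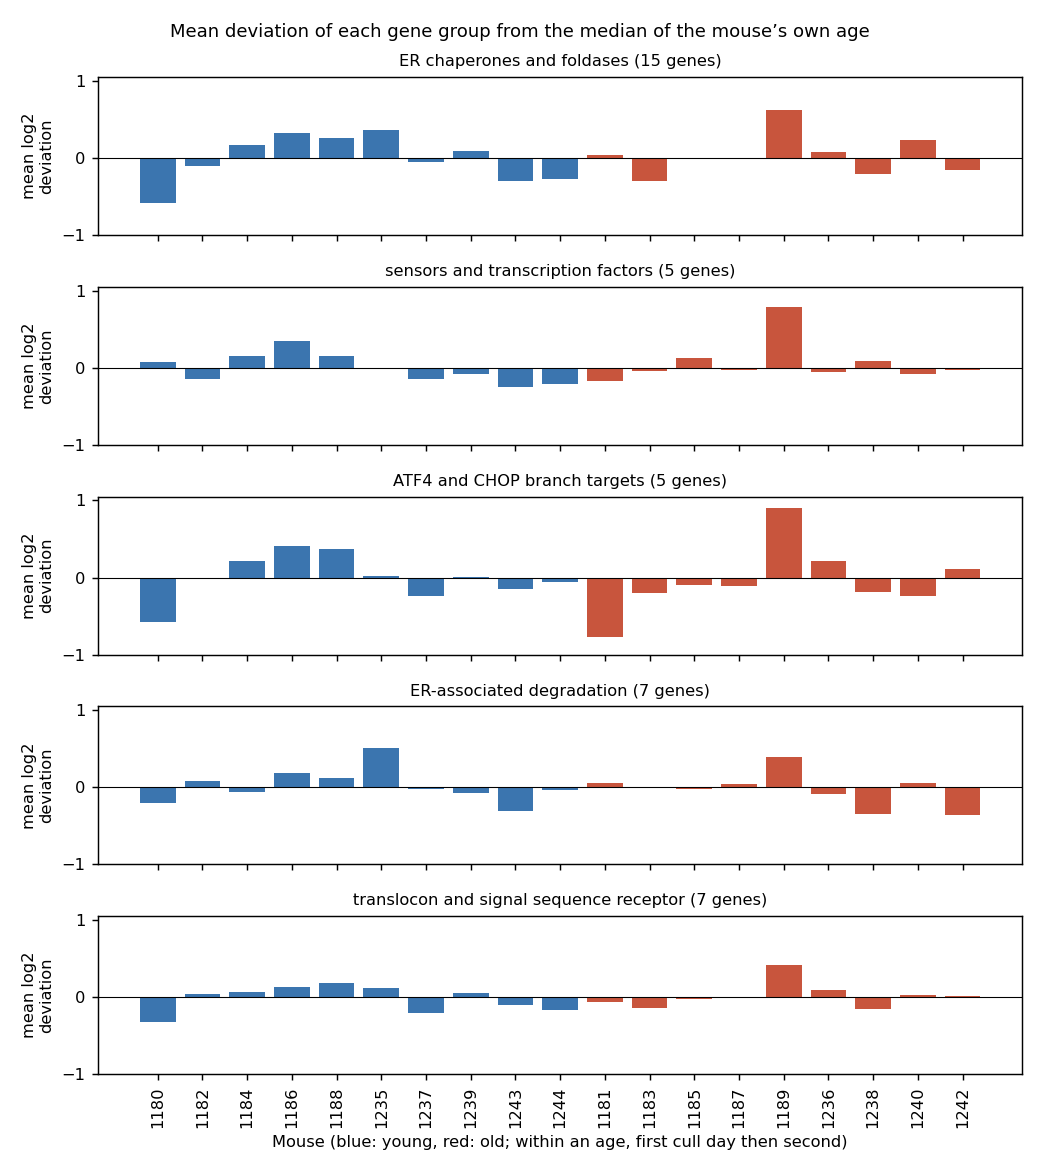
Mean log2 deviation of 5 role groups (Ppp1r15b, a group of 1 gene, is not drawn) from the median of the mouse's own age, per mouse (blue young, red old, first cull day before second within an age). Old mouse 1189 has the tallest bar of the old mice in each of the 5 panels, at 0.63 in the chaperones and 0.90 in the ATF4 and CHOP targets, and young mouse 1180 the lowest chaperone bar at -0.59.

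The number of members called moved with these mice. Without young mice 1184, 1186 and 1188 together, 2 members were called, Herpud1 and Ppp1r15b, both lower, where 27.2% of 12354 genes tested passed (14.6% higher, 12.5% lower). The median over the members was then -0.01 and 20 of 40 lay below 0. Without old mouse 1189, 10 members were called, 1 higher and 9 lower, where 32.1% of 12294 genes tested passed (16.9% higher, 15.2% lower), and the median was -0.17. The 6 added to the original 4 were Dnajb9, Hyou1, Ern1, Atf6, Syvn1 and Sec61g, all lower. As that mouse was the highest old mouse in 33 of 40 members, leaving it out lowers the old values of most members by construction. Herpud1 and Ppp1r15b were thus called with and without each set of mice, and Ddit3 and Asns were called without old mouse 1189 but not without the 3 young mice. With the other-cell covariate 3 members were called, Atf4 and Ppp1r15a higher and Asns lower, where 12.4% of 12269 genes tested passed (6.36% higher, 6.06% lower).

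An interaction term asked whether the age effect differed between cull days. In edgeR 0 of 12269 genes passed (0%), 799 had an unadjusted p under 0.05, and DESeq2 called 10 and limma-voom 349. Of the members, Asns (interaction 1.97 on the log2 scale, unadjusted edgeR p = 0.0135, adjusted p = 0.708) and Ppp1r15a (-0.57, 0.0227, 0.708) had an unadjusted p under 0.05. In both, the difference between ages was larger on the first cull day, which held young mice 1184, 1186 and 1188. The interaction of Xbp1 was 0.53 (edgeR adjusted p = 0.852).

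Around the members, 178 other genes of the same machinery were listed, of which 170 were tested. Of these 48 passed (28.2%), 14 higher and 34 lower in old mice, with a median log2 fold change of -0.07. Over all genes tested 30.9% passed, 16.3% higher and 14.5% lower, so the share of these genes that passed in either direction, and those of the degradation and COPII lists below, lay near the background. The split between directions lay further from it, with 34 of the 48 lower. Without young mice 1184, 1186 and 1188 the count was 23, with 8 higher and 15 lower, where 27.2% of all genes tested passed. With the other-cell covariate it was 26, where 12.4% of all genes tested passed. Other ER folding genes went both ways: 6 of 30 were higher and 4 lower (median 0.04). Serp1, which encodes RAMP4 and steadies membrane proteins at the translocon, was lower (314 ± 64.2 CPM in young, SD, n = 10, against 206 ± 28.4 in old, SD, n = 9; log2 fold change -0.61, SE 0.108, edgeR adjusted p = 0.000667). The oxidoreductase genes Ero1lb (-0.32, edgeR adjusted p = 0.0252) and Ero1l (-0.18, 0.0376), which reoxidise disulfide isomerases, were also lower. Higher were Tmx3 (0.33, 0.00554) and Txndc12 (0.25, 0.0137), both thioredoxin-like, and the prolyl isomerase gene Fkbp14 (0.44, 0.0113), known for its part in collagen folding. Fkbp14 rose beside 13 higher stellate cell markers, and with the other-cell covariate it was 0.71 (edgeR adjusted p = 0.00142). In the same fit Serp1 (-0.73, 0.00169) and Txndc12 (0.32, 0.0200) were called, and Tmx3 (0.22, edgeR adjusted p = 0.153), Ero1lb (-0.38, 0.0606) and Ero1l (-0.21, 0.0900) were not. The list held 2 higher and 1 lower without young mice 1184, 1186 and 1188, and with scaling by library totals alone 7 and 1. Without those mice Serp1 (-0.44, edgeR adjusted p = 0.00731) and Tmx3 (0.34, 0.0174) were called, and Ero1lb (-0.31, 0.0748), Ero1l (-0.15, 0.138), Txndc12 (0.15, 0.112) and Fkbp14 (0.29, 0.0935) were not.

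Of 24 other ER-associated degradation genes, 8 were lower and 0 higher (edgeR; DESeq2 10 and 0, limma-voom 9 and 0; median -0.09), where 14.5% of all genes tested were lower and 16.3% higher in edgeR. Nploc4 (78.2 ± 5.28 CPM (SD) in 10 young and 63.2 ± 10.5 in 9 old mice; log2 fold change -0.32, SE 0.0670, edgeR adjusted p = 0.00213) encodes a cofactor of the p97 ATPase that pulls substrates from the membrane. Edem3, a mannosidase-like partner of Edem1 (-0.48, edgeR adjusted p = 0.00217), and Ngly1, which strips N-glycans from the extracted proteins (-0.21, 0.00284), were lower as well. Of 24 tested genes of COPII export, the coat that carries folded cargo out of the ER, 7 were lower and 0 higher beside the same shares (DESeq2 8 and 0, limma-voom 8 and 0; median -0.14). They were led by the exit site scaffold gene Sec16a (90.0 ± 16.0 CPM (SD) in 10 young and 65.5 ± 9.18 in 9 old mice; log2 fold change -0.46, SE 0.0948, edgeR adjusted p = 0.00189) and the coat genes Sec24a (-0.44, edgeR adjusted p = 0.00438) and Sec23a (-0.36, 0.00750). Without young mice 1184, 1186 and 1188, 5 degradation and 3 export genes were called lower, where 12.5% of all genes tested were. With the other-cell covariate the counts were 2 and 4, where 6.06% of all genes tested were lower. Of the genes named, Edem3 (-0.50, edgeR adjusted p = 0.0174) and Sec16a (-0.47, 0.0172) were called with that covariate, and Nploc4 (-0.23, 0.0647), Ngly1 (-0.17, 0.0697), Sec24a (-0.31, 0.104) and Sec23a (-0.33, 0.0816) were not. On the first cull day alone, where 1.88% of all genes tested were higher and 1.79% lower, edgeR called 0 in either list, with 6 and 5 genes at an unadjusted p under 0.05. On the second, where 12.2% were higher and 7.15% lower, 3 degradation and 4 export genes were called lower.

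Of 26 other sensors, kinases and regulators, 7 were lower and 2 higher (median -0.10), a share of 34.6% beside 30.9% of all genes tested. Eif2b5 (43.1 ± 2.43 CPM (SD) in 10 young and 35.4 ± 2.82 in 9 old mice; log2 fold change -0.28, SE 0.0526, edgeR adjusted p = 0.000904) and Eif2b2 (-0.26, edgeR adjusted p = 0.0135) encode subunits of eIF2B, the exchange factor that phosphorylated eIF2 blocks. Eif2s1, which encodes eIF2 alpha itself, was lower too (-0.30, edgeR adjusted p = 0.0148). Counted after the values were seen, 4 of the 5 eIF2B subunit genes were lower, where 14.5% of all genes tested were, and all 5 lay between -0.39 and -0.17. The list held 2 higher and 2 lower once young mice 1184, 1186 and 1188 were left out, and Eif2b5 was the one eIF2B gene called (-0.27, edgeR adjusted p = 0.00719). Eif2b1 (0.0583), Eif2b2 (0.0836), Eif2b3 (0.162) and Eif2s1 (0.130) then missed the threshold on the edgeR adjusted p. With the other-cell covariate Eif2b2, Eif2b3, Eif2b5 and Eif2s1 were called lower and Eif2b1 was not (-0.18, edgeR adjusted p = 0.123). With scaling by library totals alone 2 were higher and 3 lower. Creb3l1 was higher (1.82, edgeR adjusted p = 0.00495) from a low level of 0.356 ± 0.165 CPM (SD, n = 10). It encodes a transcription factor of collagen-secreting cells, and with the other-cell covariate it was 0.78 (edgeR adjusted p = 0.235). Traf2, an adaptor of IRE1, was at 0.22 (edgeR adjusted p = 0.0489), and at 0.17 with that covariate (0.284).

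Other ATF4 and amino acid response genes were also split, 5 higher and 6 lower of 29 tested (median -0.04), as the ATF4 targets among the members were. Gdf15, a stress hormone gene, was higher (20.5 ± 8.16 CPM (SD) in 10 young and 34.2 ± 8.82 in 9 old mice; log2 fold change 0.80, SE 0.204, edgeR adjusted p = 0.00765), as were Pck2, the mitochondrial carboxykinase (0.57, edgeR adjusted p = 0.0106), and Cars, the cysteinyl-tRNA synthetase (0.35, 0.0195). Cth, which makes cysteine from cystathionine, was lower (361 ± 54.5 CPM (SD) in 10 young and 214 ± 53.3 in 9 old mice; log2 fold change -0.74, SE 0.131, edgeR adjusted p = 0.000623). So were the serine and glycine enzyme gene Shmt2 (-0.29, edgeR adjusted p = 0.00193) and the amino acid carrier gene Slc38a2 (-0.56, 0.00455). Without young mice 1184, 1186 and 1188, 3 were higher and 3 lower of 30 tested, and Cars was not called (0.31, edgeR adjusted p = 0.0698). With the other-cell covariate Pck2 (0.27, edgeR adjusted p = 0.258), Gdf15 (0.73, 0.0573) and Shmt2 (-0.17, 0.0872) were not called, and Cth, Slc38a2 and Cars were. Of 37 other translocation and membrane insertion genes, 1 was higher and 2 were lower (median -0.06). They were Emc10 (0.21, edgeR adjusted p = 0.0495), Srp72 of the signal recognition particle (-0.29, 0.0117) and Emc6 of the membrane insertion complex (-0.26, 0.0172). Without those 3 mice Emc6 was called (-0.33, edgeR adjusted p = 0.0148), and Srp72 (-0.19, 0.0957) and Emc10 (0.11, 0.332) were not. Srp72 was called with the other-cell covariate (-0.34, edgeR adjusted p = 0.0357), and Emc6 (-0.13, 0.352) and Emc10 (0.26, 0.0959) were not.

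**Figure D5:**
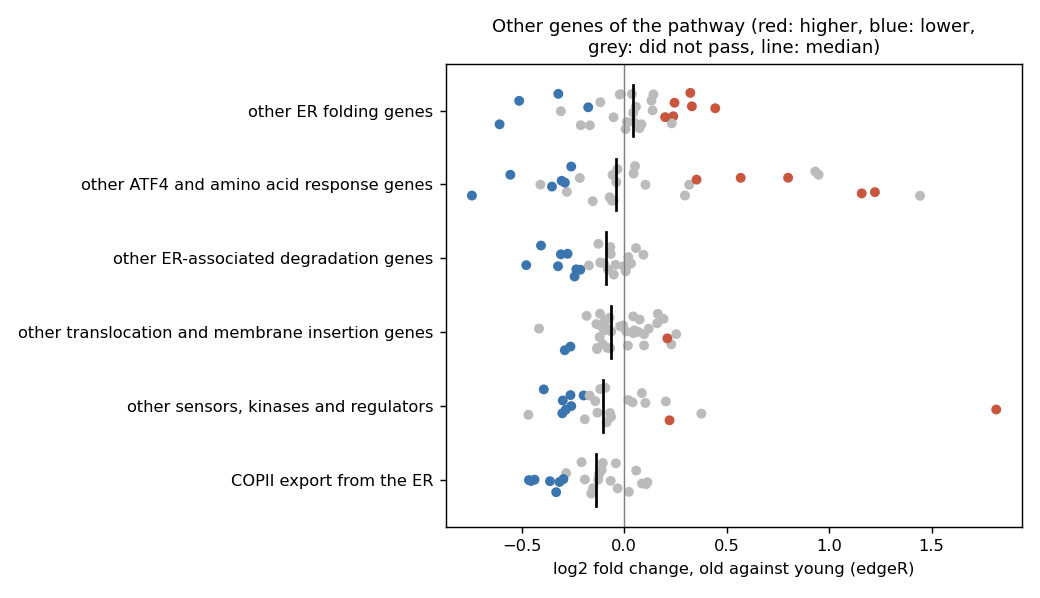
Log2 fold change, old against young mice, of the 170 tested genes in 6 lists of other pathway genes, 1 point per gene, red for higher, blue for lower, grey for not passed, with a bar at each list's median. The degradation and COPII lists hold 8 and 7 blue points and no red one, while the folding and ATF4 lists hold both colours.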

How the data were processed

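Poly(A) RNA of hepatocytes from 10 young and 9 old mice had been sequenced from a stranded paired-end library, 1 library per mouse number, per the labels' protocols. The deposited values are estimated counts of reads per gene, in steps of 0.5. HOMER produced these values on mm10 over exons of RefSeq genes, without normalization, per the file headers. STAR, HOMER, GRCm38 and mm10 are named in the submitters' processing notes. The strand setting and the handling of reads with several matches are not given in the sources used here. Of the values 29.2% were not whole, and all were rounded (ties to even). Genes took 78.3% to 86.5% of the total in each column name. Intervals cover the spread between libraries, which is spread between mice as far as the labels' separate numbers and birth dates go.

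Old and young mice were compared with edgeR 4.0.16 (R 4.3.3; quasi-likelihood test, TMM scaling, filterByExpr by age with a minimum count of 10, cull day as covariate, Benjamini-Hochberg adjustment over 12269 genes, threshold 0.05), tested on simulated data. Standard errors came from the F statistic. CPM are counts per 1000000 of the library total times its TMM factor (0.945 to 1.16). The 41 tested macrophage, endothelial, stellate, T and NK, plasma and B cell markers gave the other-cell score, as mean log2 CPM with a prior count of 2. Alternatives were DESeq2 1.42.0, limma-voom (limma 3.58.1) with sample weights, other scalings and filters, either cull day on its own, a fit without the cull day, fits without young mice 1184, 1186 and 1188 together, the other-cell score and each mouse left out in turn. The acute phase score (14 genes) and the same alternatives for the other pathway genes were added after seeing the data. Members and lists were chosen with earlier results of these data known. Members with full values are Hspa5, Xbp1, Atf4, Ddit3 and the 3 of smallest p per role; from each pathway list up to 3 genes of smallest adjusted p per direction are named. Other lists checked were T and NK cells (1 of 10 tested, 0 called), neutrophils (1 of 9 tested, 1 higher) and cholangiocytes (2 of 7 tested, 0 called). Promoter windows and gene starts are RefSeq's. Python 3.11.15 with pandas 2.3.3, scipy 1.17.1 and matplotlib 3.10.9 was used.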

Additional observations from a re-analysis of the deposited data

Results flagged for a closer look

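Within each age the highest or lowest mouse of every member was set against its nearest neighbour by Dixon's test. Of 80 groups 17 were flagged, in 15 members, where chance flags about 1 in 20 groups, and members are not independent of each other. Old mouse 1189 stood above the other old mice in 14 of these. Among chaperones it had 1552 CPM of Calr (next old mouse 1158), 415 of Pdia4 (312), 109.9 of Dnajb9 (53.3), 192 of Dnajb11 (132), 311 of Dnajc3 (254) and 302 of Hyou1 (188). Among the sensors it had 52.6 CPM of Ern1 (next 26.7), 111 of Atf6 (80.4) and 28.5 of Eif2ak3 (19.2). It also had 19.1 CPM of Chac1 (next 4.05), 101.5 of Syvn1 (66.3), 303 of Sec61a1 (214), 151 of Ssr1 (120.4) and 374 of Ssr3 (275). Young mouse 1180 had 101.5 CPM of Atf6, with 83.6 in the next young mouse. Young mouse 1235 had 136 CPM of Syvn1 (next 92.7) and 10.8 of Derl3 (next 5.79).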

How the results depend on the processing

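The count of members called was 4, and lay between 3 and 10 when each mouse in turn was left out, with 10 without old mouse 1189. It was 2 with library totals alone, 0 in the first cull day alone by edgeR (5 members at an unadjusted p under 0.05), 1 in the second cull day alone, and 2 without young mice 1184, 1186 and 1188 together. Over all genes the count of 3785 became 450 in the first cull day alone, 2389 in the second, 3355 without the 3 young mice and 1523 with the other-cell score. For the other pathway genes the 48 became 1 in the first cull day alone, 20 in the second, 23 without the 3 young mice and 26 with the other-cell score. The interaction called 10 genes in DESeq2 and 349 in limma-voom, against 0 in edgeR. Library totals alone moved the median of all genes from -0.003 to 0.042 and the calls to 2098 higher and 1169 lower. Among all values of single members under the alternatives, 1201 kept their side of the threshold and direction where called, 24 lost a call, 15 gained one, and no called value changed sign. While not called, 19 members changed sign under some alternative. No paired analysis was possible because the library numbers are not shared between the ages. Depth limits Asns, Chac1, Trib3, Derl3 and Ddit3 most, with 10 to 66 counts in their lowest library.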

Other observations

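Chaperone genes outside the ER were called lower with age. Of 11 genes listed as cytosolic heat shock genes, 9 were lower in old mice and 0 higher in edgeR (DESeq2 9 and 0, limma-voom 9 and 0), where 14.5% of all genes tested were lower in edgeR. The median log2 fold change was -0.53. Hsph1, an HSP110 of the cytosol, fell from 50.4 ± 19.4 CPM in young (SD, n = 10) to 23.9 ± 4.38 in old mice (SD, n = 9; log2 fold change -1.04, edgeR adjusted p = 0.000301). Hsp90aa1 (-0.86, edgeR adjusted p = 0.00485), Hsp90ab1 (-0.37, 0.00494), Hspa8 (-0.54, 0.00456) and Dnajb1 (-0.53, 0.0161) encode cytosolic HSP90, HSC70 and HSP40 proteins and were lower. The pair Hspd1 (-0.46, 9.34e-05) and Hspe1 (-0.38, 0.0125), in the same list, encode the mitochondrial chaperonin. The list summed to 2382 to 4241 CPM in young mice, with mouse 1235 highest, and to 2010 to 2638 CPM in old mice. Of the 11, 7 were called lower without young mice 1184, 1186 and 1188 (12.5% of all genes tested) and 5 with the other-cell covariate (6.06%). The counts were 2 on the first cull day alone (1.79% of all genes tested) and 6 on the second (7.15%). No test of the difference between the cytosolic and the ER chaperones was made.

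Genes of the immediate early response, which answers cell isolation among other stimuli, were higher in 5 of 12 tested and lower in 0 in edgeR (DESeq2 6 and 0, limma-voom 6 and 0; median 0.81), where 16.3% of all genes tested were higher in edgeR. They were Fos (1.52, edgeR adjusted p = 0.0101), Egr1 (1.17, 0.0103), Ier2 (0.85, 0.00256), Jun (0.78, 0.0249) and Atf3 (1.22, 0.0374), and Atf3 is also a target of ATF4. Atf3 was not called without young mice 1184, 1186 and 1188 (0.99, edgeR adjusted p = 0.163), without old mouse 1189 (1.15, 0.0522) or with the other-cell covariate (1.17, 0.145), and the other 4 were called in each of these fits. On the first cull day alone 1 gene of the list was called higher (1.88% of all genes tested), and on the second 4 (12.2%). The list summed to 261 to 834 CPM in young and 510.0 to 1189 CPM in old mice. Its part in the higher Ddit3 of old mice was not tested.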
